A study of Mus musculus with 16 samples.

Results

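The 48 genes described here are the protein-coding genes whose lower coordinate lies between 110 and 120 Mb on mouse chromosome 7 (assembly GRCm39) and are transcribed in the neonatal ventricle. GENCODE placed 69 protein-coding genes in this 10 Mb interval, and 52 of them reached the count minimum, 10 counts summed over the libraries of a group, in every one of the 4 groups. Of these, 4 were left out by the rule that defines the set. The 48 members stand among 14590 protein-coding genes, and 20159 genes of any type, that met the same count minimum. The interval was picked because many of its genes differed between knockout and wild-type hearts after infarction. The values of that comparison are therefore given as a description with no test, and the hearts after sham surgery, which the choice did not use, carry the tests of genotype.

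The mice were wild type (WT, C57BL/6J from a supplier) or carried a whole-body deletion of Lrrc10 (KO, Lrrc10-/-, made in a C57BL/6 background), a gene for a leucine-rich repeat protein of cardiomyocytes. Each had sham surgery (SH) or a myocardial infarction (MI) at postnatal day 1, and whole ventricles were taken 7 days later. Each of the 4 groups (WT SH and WT MI, KO SH and KO MI) held 4 libraries, with replicates numbered 1 to 4 except in KO MI, which had 1, 2, 3 and 7. No source used here says that the KO and WT mice were littermates. The loss of Lrrc10 and any other inherited difference between the 2 lines therefore cannot be told apart in either comparison of genotypes. The deposited data hold counts per gene and no base calls, so the DNA that each mouse carried in the interval was not analysed here.

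Neighbouring genes on a chromosome are inherited together as a block and need share no pathway. In congenic or knockout mice such a block can descend from a different strain than the rest of the genome, and a sequence difference in it can change the RNA of the gene it lies in or beside. Lrrc10 itself lies on chromosome 10, so this interval is not linked to the deleted gene. Its members include matrix and junction genes (Xylt1, Spon1, Plekha7, Parva), the vasodilator peptide adrenomedullin (Adm), membrane proteins (Tmc7, Itpripl2), the transcription factor Sox6, and subunits of general machines such as the COPI coat (Copb1), the proteasome (Psma1) and the PAF1 complex (Ctr9).

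Lrrc10 had 0 counts in the 8 KO libraries and lay between 26.3 and 35.6 CPM (normalized counts, scaled to the size of each library) in the 8 WT libraries, so the genotype labels held. The libraries had between 33783874 and 57470159 counts. The paper describes the groups as sex-matched, with as many males as females. Xist, a transcript of female cells, exceeded 100 CPM in 0 of 4 WT SH libraries and in 2 of 4 in each other group. By Xist, the WT SH and KO SH groups therefore differed in sex as well as in genotype. The summed CPM of 7 cardiomyocyte markers was 27114 to 37767 in WT SH and 26416 to 27305 in KO SH. It was 25538 to 27199 in WT MI and 24205 to 27033 in KO MI, and 0 of the 7 were called in either comparison of genotypes. In KO SH, 2 of 5 macrophage, 1 of 4 smooth muscle and 1 of 5 erythroid markers were called lower. The share over all protein-coding genes was 2.66%, and no marker was called higher. The 4 endothelial markers summed to 777 to 805 CPM in WT SH and 712 to 748 CPM in KO SH, with 0 called. The part of cell types in the SH results was not tested. The 7 skeletal muscle markers summed to 64.5 CPM in KO MI replicate 2 and 103.9 CPM in replicate 7, against at most 11.8 CPM in the other 14 libraries. Of the 3 that were tested, 2 were called higher in KO MI, against 0.596% of all protein-coding genes. Nnt, a mitochondrial transhydrogenase gene on chromosome 13 that is partly deleted in C57BL/6J, was looked at for the strain. Counts per gene do not show which part of a gene was read, so they could not decide it. Nothing on the strain of either line is read from its level. Its level was 51.7, 120.7, 102.3 and 87.6 CPM in WT SH replicates 1 to 4, and 46.8, 40.0, 54.4 and 44.5 CPM in KO SH. The log2 fold change was -0.96 (SE 0.21, adjusted p = 0.0121), although WT SH replicate 1 lay within the range of the KO SH libraries. In MI hearts the log2 fold change of Nnt was -0.51 (SE 0.21), not called, and the groups overlapped. In bulk ventricles, fewer cells of a type and less RNA per cell cannot be told apart for any of these genes.

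Itpripl2 and Tmc7 lie close together, with 0.0928 Mb between their annotated 5′ ends and 1 member between them, and both were lower in KO MI hearts. Their promoters are shown because they are the promoters of called members that the RefSeq table used here (assembly GRCm38.p6) holds. The table had 32 of the 48 members and 2 of the 6 called in MI hearts. Each line gives the 250 bases before the RefSeq start, 5′ to 3′ on the gene's own strand, and both stretches were found unchanged in GRCm39, at chr7:118091199-118091448 (minus strand) for Itpripl2 and chr7:118183910-118184159 (minus strand) for Tmc7. Capitals mark matches to 5 motifs searched on both strands. These were the TATA box in its form TATAAA, the CAAT box core written CCAAT, the GC box with the letters GGGCGG, and the element known to be bound by TEAD factors, written CATTCC. The cyclic AMP response element in its palindromic form TGACGTCA was added after the sequences had been read.
Itpripl2: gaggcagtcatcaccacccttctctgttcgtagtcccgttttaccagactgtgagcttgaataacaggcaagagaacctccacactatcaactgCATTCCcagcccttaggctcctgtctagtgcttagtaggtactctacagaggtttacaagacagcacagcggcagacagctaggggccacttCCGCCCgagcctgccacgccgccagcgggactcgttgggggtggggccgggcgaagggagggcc
Tmc7: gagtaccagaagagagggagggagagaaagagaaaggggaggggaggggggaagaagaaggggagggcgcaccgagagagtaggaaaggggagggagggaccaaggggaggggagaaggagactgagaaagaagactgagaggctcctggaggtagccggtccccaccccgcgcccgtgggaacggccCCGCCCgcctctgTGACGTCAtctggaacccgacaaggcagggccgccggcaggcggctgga
The Itpripl2 window held CATTCC 156 bases before the start, a motif found in 12.6% of all 32851 windows of this length in the table. It also held the GC box, in reverse complement, 64 bases before the start. The GC box stood in the same orientation 62 bases before the start of Tmc7, and 32.7% of all windows held it. Tmc7 had TGACGTCA 49 bases before the start, and 1.55% of all windows held it. Because this motif was added after the sequences had been read, its match was known beforehand and nothing is read from that share. GENCODE starts both genes further upstream than RefSeq, so 141 of the 250 bases shown for Tmc7, with the motifs marked in it, lie inside its GENCODE gene, and 12 of those shown for Itpripl2 do. The TATA box (12.4% of all windows) and the CAAT box (33.8%) had no match in either. The share of C and G was 58.8% with 11 CpG for Itpripl2 and 66.0% with 14 CpG for Tmc7, against medians of 52.4% and 6 CpG over the table. These are bases of the reference genome and not of the KO mice, and a match is a description of letters and not a bound site.

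After sham surgery, 2 of the 48 members differed between KO and WT hearts. Xylt1 and Itpripl2 were both lower in KO SH. For a call, the Benjamini-Hochberg adjusted p of edgeR's test, taken over all genes tested, had to be under 0.1 and the log2 fold change had to reach 0.5 in size. The 2 members were 4.17% of the set, and 4.25% of all protein-coding genes tested were called in the same comparison, so the share of the members was at the background. By direction, 2 members were lower, against a background of 2.66%, and 0 were higher, against 1.59%. At an unadjusted p under 0.05 there were 7 members (14.6%, against 24.4% of all). With no limit on the fold change, 4 members passed (8.33%, against 13.4% of all), the other two being Ampd3 and Knop1. The members' median absolute log2 fold change was 0.107, below the 0.142 of all protein-coding genes, and their median was -0.04 against -0.02. Of the 48, 44 lay within 0.5 of no change.

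Xylt1 encodes xylosyltransferase 1, which places the first sugar of glycosaminoglycan chains on proteoglycan core proteins. It lies on the plus strand of chromosome 7 from 116979979 to 117272803. Its level was 5.25, 5.77, 6.89 and 9.17 CPM in WT SH replicates 1 to 4 and 3.74, 3.92, 5.03 and 4.09 CPM in KO SH. The KO SH libraries all lay below the WT SH libraries, with a gap between 5.03 and 5.25 CPM. The means were 6.77 ± 1.74 and 4.19 ± 0.574 CPM (SD, n = 4), a log2 fold change of -0.68 (SE 0.18, adjusted p = 0.0243). It was called in each of the 8 fits that left out a library of these 2 groups, with log2 fold changes between -0.79 and -0.50.

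Itpripl2 encodes a membrane protein related to the inositol trisphosphate receptor-interacting protein, and lies on the minus strand from 118077945 to 118091210. WT SH replicates 1 to 4 had 54.4, 56.2, 71.1 and 71.2 CPM, and KO SH had 40.4, 47.4, 42.0 and 42.2 CPM. The groups did not overlap, and the WT SH libraries fell into a lower and a higher pair. The means were 63.2 ± 9.18 and 43.0 ± 3.04 CPM (SD, n = 4), a 1.47-fold lower level in KO SH (log2 fold change -0.56, SE 0.09, adjusted p = 0.00195). Without WT SH replicate 3 or 4 the log2 fold change was -0.49 and the fold limit was missed, while the adjusted p stayed at or below 0.0109 in the 8 fits. An exact permutation test (two-sided) of the log2 level gave p = 0.0286 for Xylt1 and for Itpripl2, the smallest that 4 libraries against 4 allow. Any gene whose groups do not overlap gets this p, so it adds nothing to the separation. Of all protein-coding genes, 21.3% had separate SH groups.

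Knop1 and Ampd3 passed the test with smaller fold changes. Knop1, a lysine-rich nucleolar protein, had 22.6, 20.7, 21.1 and 21.7 CPM in WT SH against 18.1, 17.5, 17.8 and 16.9 CPM in KO SH. The groups were apart by more than either spread (log2 fold change -0.29, SE 0.06, adjusted p = 0.00499). Ampd3, an AMP deaminase of erythrocytes and other tissues, had 28.8, 24.5, 26.6 and 23.8 CPM in WT SH and between 20.1 and 21.3 CPM in KO SH (log2 fold change -0.32, SE 0.10, adjusted p = 0.058). Erythroid markers moved in the same direction, with a summed level of 522.4 to 726.0 CPM in WT SH and 414.2 to 494.1 CPM in KO SH. Of the 5, 1 was called lower, against 2.66% of all protein-coding genes. In MI hearts they summed to 446.2 to 628.9 CPM in WT and 352.4 to 1130 CPM in KO. There 2 of the 5 were called higher, against 0.596% of all, while the Ampd3 log2 fold change was -0.21 (SE 0.10). The part of the erythroid markers in the Ampd3 result was not tested. The SH groups did not overlap for 6 members (12.5%, against 21.3% of all protein-coding genes). These were the 4 above, lower in KO, and Adm and Rras2, a Ras-related GTPase, higher in KO with log2 fold changes of 0.20 (SE 0.11, adjusted p = 0.298) and 0.10 (SE 0.11, adjusted p = 0.631).

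**Figure D1:**
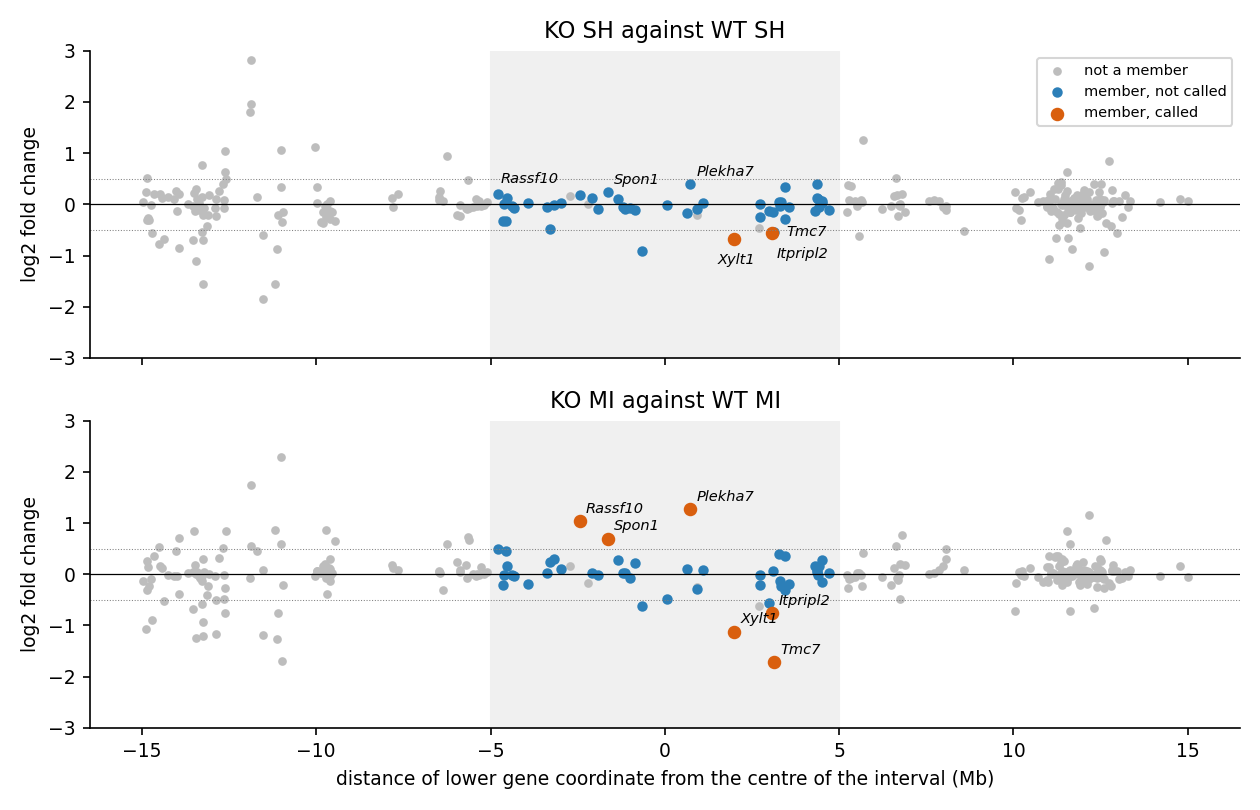
Log2 fold change (vertical axis) of KO against WT hearts after sham surgery (top) and MI (bottom) for 295 protein-coding genes, by the distance of each gene's lower coordinate from the centre of the chromosome 7 interval in Mb (horizontal axis). The shaded band is the interval, dotted lines mark 0.5 in either direction, and 2 genes outside the interval lie beyond the vertical axis in a panel and are not drawn there. The 2 called members of the top panel sit at -0.68 and -0.56, and those of the bottom panel range from -1.72 to 1.27.

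In MI hearts, which the choice of the interval used, 6 of the 48 members were called (12.5%, against 1.65% of all protein-coding genes). Plekha7, Rassf10 and Spon1 were higher in KO MI (6.25%, against 0.596% of all), and Tmc7, Xylt1 and Itpripl2 were lower (6.25%, against 1.06%). With no fold limit the count was 13 (27.1%, against 3.37% of all). The groups did not overlap for 13 members (27.1%, against 6.55%), 7 with KO higher and 6 with KO lower. The median log2 fold change was 0.03 with 26 members above 0 and 22 below, so the members did not move one way. Since the interval was chosen on this comparison, nothing is read from these shares.

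Among the junction and matrix genes, Plekha7 had the largest rise. It encodes a protein of adherens junctions that binds p120 catenin, and lies on the minus strand from 115722720 to 115907611. WT MI replicates 1 to 4 had 8.91, 10.9, 12.4 and 19.0 CPM and the KO MI libraries had 28.6, 28.9, 26.5 and 39.6 CPM. The lowest KO MI library was above the highest WT MI library, and the log2 fold change was 1.27 (SE 0.20). After sham surgery the same gene had 34.7, 31.8, 22.8 and 19.1 CPM in WT SH and 38.3, 36.2, 33.7 and 34.7 CPM in KO SH. These groups overlapped, since WT SH replicate 1 lay among the KO SH libraries (log2 fold change 0.40, SE 0.20, adjusted p = 0.243).

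Xylt1 had 15.1, 14.2, 14.0 and 9.84 CPM in WT MI and 4.74, 7.03, 6.03 and 6.64 CPM in KO MI, with no overlap and a log2 fold change of -1.12 (SE 0.17). Spon1 encodes F-spondin, a secreted matrix protein, and lies on the plus strand from 113364999 to 113642610. It had 24.9, 26.9, 24.0 and 18.6 CPM in WT MI and 27.4, 52.5, 31.1 and 41.9 CPM in KO MI. The 2 highest libraries were KO MI replicates 2 and 7, which also had the most skeletal muscle transcripts (log2 fold change 0.70, SE 0.15). Without these 2 libraries Spon1 was no longer called, and the part of those transcripts in its level was not tested. In SH hearts Spon1 ranged from 19.4 to 23.2 CPM in WT and from 22.8 to 26.4 CPM in KO, with a log2 fold change of 0.24 (SE 0.15, adjusted p = 0.388).

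Among the signalling and membrane genes, Tmc7 had the largest fall. It belongs to the transmembrane channel-like family and lies on the minus strand from 118135063 to 118184050. Its level was 5.21, 4.91, 5.76 and 2.89 CPM in WT MI and 1.44, 0.965, 1.41 and 1.93 CPM in KO MI. Each WT MI library was above each KO MI library, and the mean of KO MI was 3.29-fold lower in the fit (log2 fold change -1.72, SE 0.29). In SH hearts Tmc7 had 1.71, 1.71, 4.12 and 3.77 CPM in WT and 1.42, 2.19, 2.13 and 2.05 CPM in KO. Here the groups overlapped, with WT SH replicates 1 and 2 inside the KO SH range (log2 fold change -0.53, SE 0.29, adjusted p = 0.295).

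Itpripl2 had 85.4, 72.4, 82.4 and 67.7 CPM in WT MI against 48.3, 47.5, 44.8 and 42.0 CPM in KO MI (log2 fold change -0.75, SE 0.09), again with no overlap. Rassf10, a protein with a Ras-association domain, lies on the plus strand from 112553169 to 112556664. It had 0.568, 0.387, 0.585 and 0.369 CPM in WT MI and 1.04, 0.610, 1.12 and 1.18 CPM in KO MI. The groups were separated by a narrow gap between 0.585 and 0.610 CPM (log2 fold change 1.04, SE 0.27), and the call was lost in 3 of the 8 fits that left out a library, those without WT MI replicate 2, WT MI replicate 4 or KO MI replicate 3. In SH hearts its groups overlapped (log2 fold change 0.18, SE 0.26, adjusted p = 0.74).

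**Figure D2:**
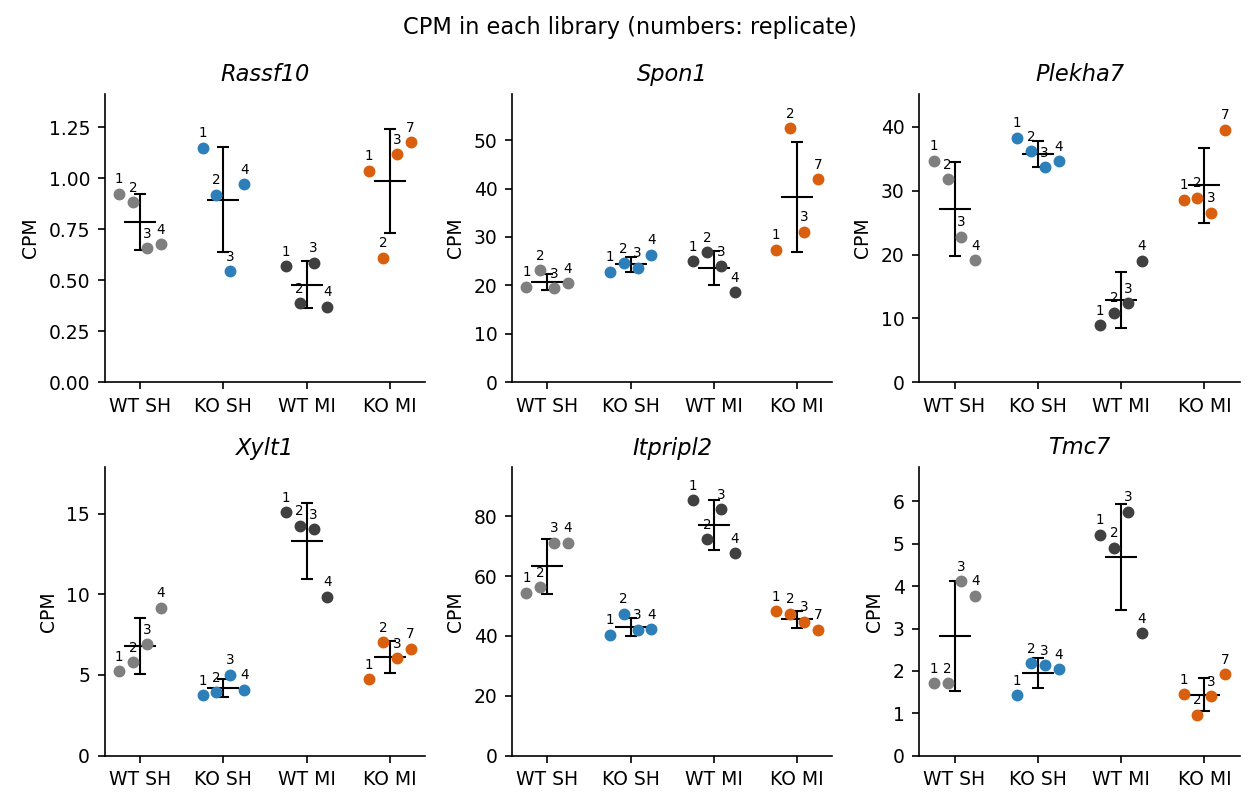
CPM (vertical axis, from 0) of the 6 members called in MI hearts, by group (horizontal axis), with 1 point per library labelled by its replicate number and bars for the mean and SD of 4 libraries. The KO MI points of Plekha7 sit at 26.5 CPM or higher and the WT MI points at 19.0 CPM or lower, and the WT SH points of Tmc7 split into 1.71 and 1.71 against 3.77 and 4.12 CPM.

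Just under the fold limit in MI hearts stood Adm, a vasodilator peptide hormone, on the plus strand from 110226858 to 110229027. It had 2.52, 2.32, 2.63 and 2.17 CPM in WT MI and 3.37, 3.62, 2.99 and 3.64 CPM in KO MI, a log2 fold change of 0.50 that rounds up to the limit. The other members with separate MI groups and smaller fold changes were Mical2, an enzyme that oxidises actin (log2 fold change 0.30), Gde1, a glycerophosphodiesterase (0.39), and Iqck (0.35), higher in KO. Pik3c2a, a class II phosphoinositide 3-kinase (-0.30), Vps35l, a subunit of the retriever complex (-0.24), and Knop1 (-0.31) were lower in KO. Knop1 was about as far below WT after MI as after sham surgery, with 23.8, 24.5, 23.9 and 21.2 CPM in WT MI and 19.5, 18.1, 18.9 and 18.8 CPM in KO MI.

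The SH and MI comparisons share no library, though they share the normalization and the dispersion of 1 fit. Over the 48 members their log2 fold changes had a Pearson r of 0.669 and a Spearman rho of 0.530, and 30 members (62.5%) had the same sign. Over the other 14542 protein-coding genes r was 0.327, rho was 0.192 and 54.6% had the same sign. These values are a description, and the members with the largest MI differences were there by the choice of the interval. The 6 members called in MI hearts each had the same sign in SH hearts with a smaller size, from 0.18 to 0.40 for the 3 higher ones and from -0.68 to -0.53 for the 3 lower ones. These 6 were picked on their MI difference, so nothing is read from the smaller size or the shared sign. The same was not counted over the other genes called in MI hearts. The groups were separate in the same direction in both surgeries for 4 members, Adm, Xylt1, Itpripl2 and Knop1, and in opposite directions for 0. Over all protein-coding genes, 21.3% were separate in SH hearts and 6.55% in MI hearts. The share separate in both was not taken over all genes. Since the MI part chose the interval, nothing is read from this count.

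**Figure D3:**
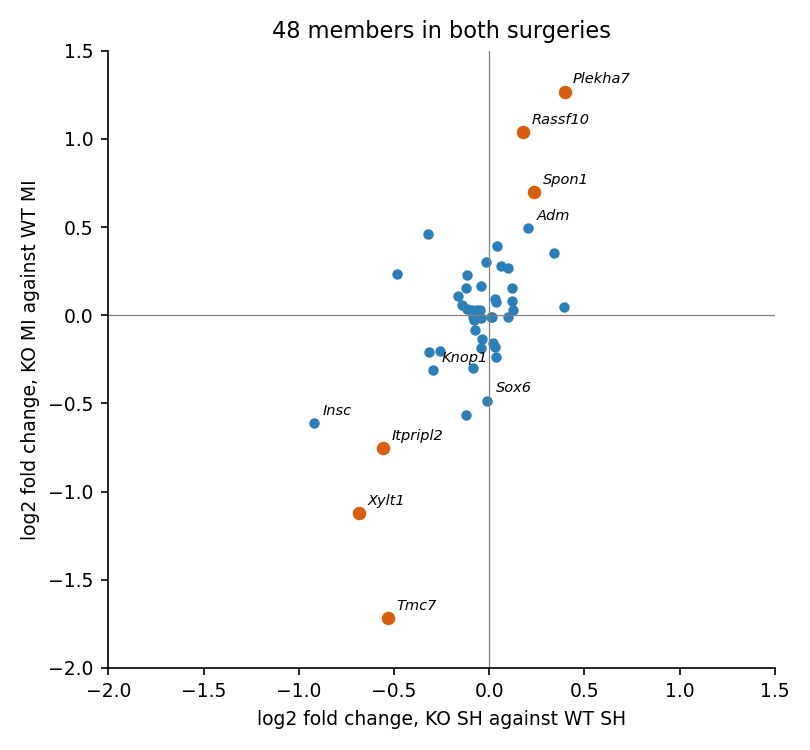
Log2 fold change of KO against WT after sham surgery (horizontal axis) and after MI (vertical axis) for the 48 members, with those called in either comparison in orange. Points spread further along the MI axis (-1.72 to 1.27) than along the SH axis (-0.92 to 0.40).

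A test of the interaction asks whether the KO difference after MI departs from that after sham surgery. It was passed by 0 of the 48 members in edgeR, against 0.0274% of all protein-coding genes. At an unadjusted p under 0.05 it was passed by 12 (25%, against 14.3% of all). Because the interaction includes the comparison that chose the interval, nothing is read from either count, and a gene called in MI and not in SH hearts is not thereby shown to differ between them.

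For Plekha7, Xylt1, Tmc7 and Itpripl2 the SD of the log2 level was larger among the WT than among the KO libraries in both surgeries, a pattern singled out after their values were seen. The SD of Plekha7 was 0.403 in WT SH and 0.0803 in KO SH, and 0.461 in WT MI and 0.256 in KO MI. That of Tmc7 was 0.684 and 0.283 after sham surgery and 0.440 and 0.394 after MI. The set as a whole did not share this in MI hearts. Over the 45 members with a mean of at least 1 CPM, the SD was larger in WT than in KO for 36 in SH hearts (80%, against 66% of 12124 protein-coding genes) and for 12 in MI hearts (26.7%, against 25.2%).

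Relative to the mean of the KO libraries of the same surgery, Plekha7 stood at 97.2%, 89.0%, 63.8% and 53.5% in WT SH replicates 1 to 4 and at 28.9%, 35.3%, 40.2% and 61.6% in WT MI. Tmc7 stood at 88.0%, 87.9%, 212% and 194% in WT SH and at 363%, 342%, 401% and 201% in WT MI. For both genes WT SH replicates 1 and 2 were nearest to the KO level of their surgery. Xylt1 stood at 125%, 138%, 164% and 219% in WT SH and at 247%, 233%, 230% and 161% in WT MI, and Itpripl2 at 127%, 131%, 165% and 165% and at 187%, 159%, 181% and 148%. In these 2 genes every WT library was above the KO mean, and WT SH replicates 1 and 2 were again the nearest to it. In all 4 genes WT MI replicate 4 was the WT MI library nearest to the KO mean.

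Xist was low in the 4 WT SH libraries and high in 2 of the 4 KO SH libraries. With a term for libraries with high Xist, the SH log2 fold changes were -0.34 for Tmc7 (adjusted p = 0.536), -0.58 for Xylt1 (adjusted p = 0.063), -0.54 for Itpripl2 (adjusted p = 0.00654) and 0.33 for Plekha7 (adjusted p = 0.378). The 6 MI calls stayed in place in that fit. Insc, a regulator of spindle orientation, had the largest SH difference of the set in the fit without that term (log2 fold change -0.92, SE 0.35) and missed the threshold there (adjusted p = 0.121). It was called with the term, in DESeq2, in a fit of only the 2 SH groups and without WT SH replicate 4.

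Within WT hearts, 2 of the 48 members were called between MI and SH (4.17%, against 2.75% of all protein-coding genes). Plekha7 was lower after MI by 1.08 on the log2 scale (SE 0.20) and Xylt1 was higher by 0.98 (SE 0.17). The background was 2.25% for higher and 0.493% for lower genes. Both were called in the 8 fits that left out a library. In KO hearts the same genes had log2 fold changes of -0.21 (SE 0.20, not called) and 0.54 (SE 0.18, called). The MI libraries of these comparisons also entered the one that chose the interval, and the SH libraries entered the SH comparison. The 4 comparisons are therefore not independent of each other. That choice favoured members with extreme levels in MI hearts, so the values of MI against SH are a description with no test.

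Within KO hearts, 4 members rose after MI (8.33%, against 8.36% of all protein-coding genes in either direction and 6.74% higher) and 0 fell (1.62% of all). Dkk3, a secreted glycoprotein of the Dickkopf family, had 8.05, 10.3, 10.6 and 12.5 CPM in KO SH. In KO MI it had 21.1, 25.3, 30.3 and 14.1 CPM, with no overlap (log2 fold change 1.14, SE 0.20). In WT hearts it went from 14.2, 18.5, 11.0 and 14.3 CPM to 21.8, 19.3, 22.2 and 14.3 CPM (log2 fold change 0.42, SE 0.20, not called). Spon1 was higher after MI in KO hearts by 0.65 (SE 0.15) and Xylt1 by 0.54. Arl6ip1, a protein that shapes the endoplasmic reticulum, was higher by 0.52 (SE 0.16). As in WT hearts, these values are a description with no test. Without KO MI replicate 2 only Dkk3 was still called, and Xylt1 was called in 2 of the 8 fits that left out a library. Fibroblast markers also rose, with a summed level of 1761 to 1934 CPM in KO SH and 2395 to 2628 CPM in KO MI (1900 to 2245 CPM in WT SH and 2284 to 2639 CPM in WT MI), and their part in the rise of Dkk3 and Spon1 was not tested.

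By role, 0 of 10 genes of actin, adhesion and matrix were higher and 1 was lower in KO SH, where 1.59% and 2.66% of all protein-coding genes were called, and 2 were higher and 1 lower in KO MI, against 0.596% and 1.06%. Of 11 signalling and hormone genes, 0 were higher and 1 was lower in KO SH, and 1 was higher and 2 lower in KO MI. Nothing is read from the MI counts, which come from the comparison that chose the interval, and no test between roles was made. In the fit of all libraries, none of the 7 metabolic genes, the 9 genes of transcription, RNA and translation, the 10 genes of protein turnover and trafficking or the 1 uncharacterised gene was called in edgeR in either comparison of genotypes. Sox6, a repressor of slow-fibre muscle genes, belongs to these. It had 33.2, 39.6, 38.4 and 32.6 CPM in WT MI and 24.8, 19.7, 24.5 and 34.0 CPM in KO MI (log2 fold change -0.48, SE 0.12), where only KO MI replicate 7 lay within the WT range, and its SH log2 fold change was -0.01 (SE 0.12, adjusted p = 0.972). It was called in MI hearts without WT MI replicate 1, WT MI replicate 4 or KO MI replicate 7, and without KO MI replicates 2 and 7 together.

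Genes elsewhere in the genome whose products work with members were looked at in 7 lists of 37 genes tested. These were the adrenomedullin receptor subunits (4 genes), the partners of alpha-parvin (5), enzymes of AMP metabolism (4), the proteasome alpha subunits (6), the COPI coat (8), the PAF1 complex (5) and the retriever and commander complexes (5). In edgeR 0 of the 37 were called between KO and WT hearts after sham surgery and 0 after MI, where 4.25% and 1.65% of all protein-coding genes were called. Over all protein-coding genes, 13.4% passed the adjusted p in SH hearts with no fold limit. Chosen after their values were seen, 4 of the 37 did, each below the fold limit. These were Adss1 (log2 fold change -0.46, adjusted p = 0.00261) and Adsl (-0.32, adjusted p = 0.00646), enzymes of AMP synthesis, and Lims1 (-0.27, adjusted p = 0.0213) and Parvb (-0.31, adjusted p = 0.0894), partners of alpha-parvin. Lims1 also passed it in MI hearts (-0.26, adjusted p = 0.0537), where 3.37% of all protein-coding genes did. The median log2 fold changes of the 7 lists lay between -0.21 and -0.05 after sham surgery and between -0.15 and 0.09 after MI.

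Outside the first edge of the interval, Sbf2 (lower coordinate 109907209) had log2 fold changes of 0.04 in SH and 0.05 in MI hearts. The first member inside it, Adm, had 0.20 and 0.50. At the other edge, the last member Ldaf1, a lipid droplet assembly factor, had -0.11 and 0.03, and Uqcrc2 beyond it (lower coordinate 120233976), a subunit of respiratory complex III, had -0.15 and -0.02. In the 10 Mb before the interval, 8 of 103 genes were called in SH (7.77%) and 11 in MI hearts (10.7%). In the 10 Mb after it, 5 of 140 were called in SH (3.57%) and 3 in MI hearts (2.14%), and within 10 Mb of Lrrc10 on chromosome 10 it was 2 of 76 (2.63%) in each. No test between these intervals was made.

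Over 227 intervals of 10 Mb with at least 20 protein-coding genes tested, the share called in SH hearts had a median of 3.33% and a maximum of 20.5%. The chromosome 7 interval, with the 4 left-out genes counted, had 2 of 52 (3.85%, exact Clopper-Pearson 95% interval 0.469% to 13.2%, which treats genes as independent), and 96 intervals had a higher share. In MI hearts it had 7 of 52 (13.5%) and 0 intervals had a higher share, as follows from its choice. The next share, 10.7%, was that of the adjoining 10 Mb before it on chromosome 7.

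**Figure D4:**
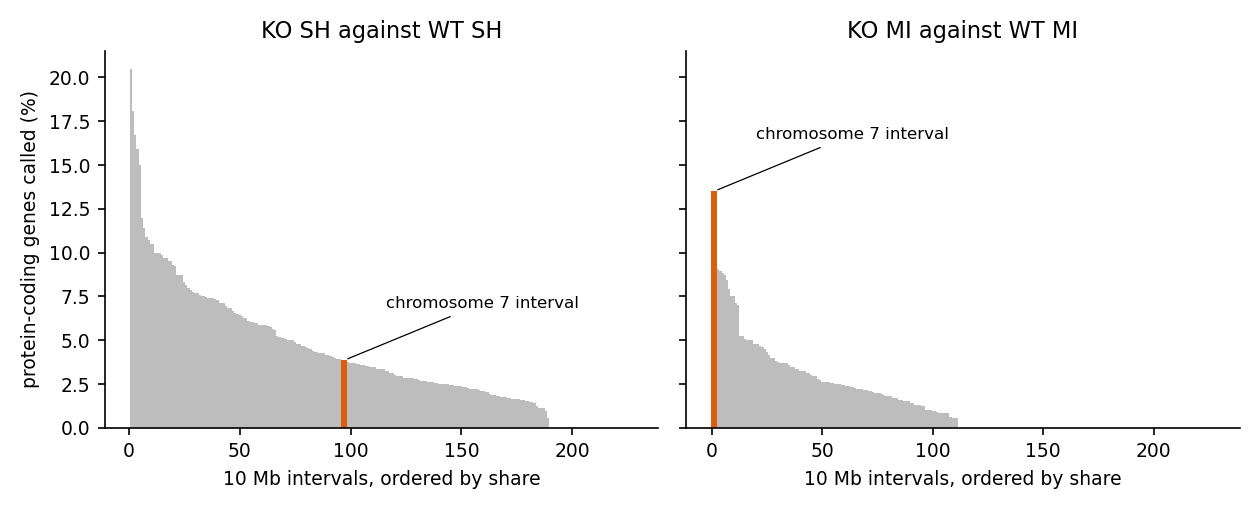
Share of protein-coding genes called between KO and WT (vertical axis, %) in 227 intervals of 10 Mb, ordered from the highest share to the lowest (horizontal axis), after sham surgery (left) and MI (right). The orange bar is the chromosome 7 interval, at 3.85% with 96 intervals above it on the left and at 13.5% with 0 above it on the right.

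Among 28 genes of the interval that are not protein-coding, 3 were called in SH hearts (10.7%, against 6.89% of 5178 such genes) and 2 in MI hearts (7.14%, against 1.83%). Those of MI hearts, Gm45153 and Gm44550, lie inside Xylt1 and Vps35l on the same strand, so their counts and those of the host gene may share reads. Gm45153 had a log2 fold change of -2.77 in MI and -0.37 in SH hearts. Members that overlap on opposite strands, such as Vps35l and Knop1 or Knop1 and Iqck, were counted from libraries that the study describes as strand-specific.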

How the data were processed

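Whole-ventricle RNA of 16 mice was sequenced as strand-specific libraries after depletion of ribosomal RNA. The authors deposited RSEM expected counts per gene, without normalization, for all 16 libraries on assembly GRCm39. The paper's methods name Skewer, STAR and RSEM, while the submitters' processing notes name cutadapt 3.4, HISAT2 2.2.1 and RSEM 1.1.17, and which set made the table could not be settled. RSEM shares out reads that match several genes, so counts of close paralogs are uncertain.

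Expected counts were rounded. GENCODE release M39 gave names, positions and biotypes for 47772 of 51912 gene IDs. Genes reaching 10 counts, summed over a group's libraries, in all 4 groups were tested with edgeR 4.0.16 (R 4.3.3, TMM, quasi-likelihood F-test, 1 coefficient per group, 16 libraries) and Benjamini-Hochberg adjustment. The thresholds followed the study, an adjusted p under 0.1 and a log2 fold change of 0.5 or more in size. CPM used TMM-scaled sums over the genes tested. Single levels were compared by an exact permutation test on log2(CPM + 0.05). A count of 3, the floor used for detection, is at most 0.0858 CPM in these libraries. The members and lists, and the rule for named genes, were chosen with earlier results of these data known. The rule named members called in either comparison of genotypes, the genes at the edges of the interval, Lrrc10 and Nnt, and any other gene named was chosen after its values were seen. The scripts were tested on simulated data. Replicates are separate libraries, and where nothing says that they came from separate animals the p-values measure only the spread between libraries. DESeq2 1.42.0, other filters and normalizations, a replicate block, a term for high Xist and leaving out each library were run as alternatives.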

Additional observations from a re-analysis of the deposited data

Results flagged for a closer look

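Of 32 groups of 4 libraries examined (the 6 members called in MI hearts and the first and last member by position, in 4 groups each), 2 had a library far from the other 3, and chance alone would mark about 5% of groups. Xylt1 in WT MI replicate 4 was 9.84 CPM, against 14.0 to 15.1 CPM in the other 3 libraries, and this gap was 0.83 of the whole range. Tmc7 in KO SH replicate 1 was 1.42 CPM, against 2.05 to 2.19 CPM in the others, a gap of 0.844 of the range. Without WT MI replicate 4, Xylt1 was still called in KO MI against WT MI and in WT MI against WT SH. Without KO SH replicate 1, Tmc7 was still not called in KO SH against WT SH.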

How the results depend on the processing

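The 2 calls in SH hearts became 4 with no minimum fold change, against 13.4% of all protein-coding genes. The 6 in MI hearts became 13, against 3.37% of all. Leaving out 1 library gave 1 to 2 calls in SH hearts (1, Xylt1, without WT SH replicate 3), against 3.08% to 4.71% of all protein-coding genes. In MI hearts it gave 5 to 8, against 1.1% to 2.82%. WT MI against WT SH had 2 to 3 (1.45% to 2.78% of all) and KO MI against KO SH 1 to 7 (5.11% to 11.3%). The last count was 2 without KO SH replicate 1 (7.01% of all) or KO MI replicate 3 (6.64%). It was 1 without KO MI replicate 2 (5.11%) and 7 without KO MI replicate 1 (10.1%). The median log2 fold change of the members in SH hearts lay between -0.0612 and -0.0214 when 1 library was left out, and that in MI hearts between -0.00546 and 0.0518, below 0 without KO MI replicate 2. DESeq2 gave 3 SH calls, with Insc added (4.62% of all protein-coding genes), and the same 6 MI calls by name (2.15% of all). A fit of only the 2 groups compared gave 3 (5.11% of all) and 4 (0.905%), without Rassf10 and Spon1 in MI hearts. KO MI replicates 2 and 7 were also left out together, chosen after their skeletal muscle transcripts were seen. Then 7 members were called in MI hearts (1.44% of all), Spon1 not among them. Alternatives for single members in SH hearts covered the 6 members called in MI hearts and the first and last member by position. Of these 120, 118 kept direction and side of the threshold, 2 fell below the fold limit (Itpripl2 without WT SH replicate 3 or 4) and 0 reversed. Only Xylt1 and Itpripl2 among these members were called in SH hearts, so for the others this shows that they stayed uncalled. Insc, which crossed the threshold in some fits, was not among them. With edgeR's own filter 47 members were tested.

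Whether replicate numbers pair the libraries was not tested. Same-numbered KO and WT libraries had correlations of deviations from the group means between -0.0863 and 0.0265 in SH hearts. In MI hearts these lay between 0.0422 and 0.224. Libraries with different numbers had correlations between -0.0316 and 0.0686 in SH hearts and between -0.180 and 0.213 in MI hearts. With the replicate number as a block, 2 members were called in SH hearts, against 4.72% of all protein-coding genes. In MI hearts 6 were called (2.54% of all), where Sox6 came in and Rassf10 dropped out. KO MI against KO SH had 5 (10.7% of all), where Lyve1 and Sox6 came in and Xylt1 dropped out. Depth limits Dnah3, which had 0 counts in WT MI replicate 4, and Acsm3 most, with at most 0.37 CPM in a library.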
